A study of Drosophila melanogaster with 2 samples.

Results

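spidey, bmm and bgm are 3 genes of lipid metabolism that lay nearest to strong binding peaks of the fly protein CG8388. They were chosen by the deposited signal: each is the protein-coding gene with the nearest transcription start site (TSS) to 1 of the 20 highest peaks in a list of 6075 peaks that passed the authors' threshold on reproducibility between replicates. Ranks and signals of these peaks are therefore descriptions and carry no test. At the edge of the choice, the 20th peak, nearest to CG18549, had a signal of 2876, and the 21st, nearest to Fkbp14, had 2855.

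Occupancy was measured by ChIP-seq, which recovers chromatin fragments with an antibody and reads their DNA. The single group comprised whole embryos of mixed sex, 0 to 14 h old, from a transgenic Drosophila melanogaster line that stably expresses CG8388 with GFP at its C-terminus, and an anti-GFP antibody was used. There were 2 libraries, numbered as biological replicates 2 and 3 and both from this line, and each has a list of 30000 peaks. A pooled list, also of 30000 peaks, and the thresholded list draw on both. The lists hold no read totals, so the depth is unknown. No untagged or mock library was analysed here, and in whole embryos the cells that carry a peak cannot be told apart.

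In flies, spidey encodes the reductase that carries out a reduction step in each round of very-long-chain fatty acid elongation, and it has also been linked to steroid metabolism. The bmm product, brummer, is a lipase on the surface of lipid droplets that releases fatty acids from stored triglycerides, most prominently in the fat body. bgm (bubblegum) encodes an acyl-CoA synthetase that activates very-long-chain fatty acids for further use, and fly mutants of this gene show neurodegeneration. The 3 genes thus act in the making, the release and the activation of fatty acids.

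The sequences beneath the 3 summits are shown because they differ in kind: a promoter, an intron and a stretch between genes. Each runs 5′ to 3′ on the forward strand of the dm6 assembly, from RefSeq's copy of it. The windows are 300 bases long and centred on the summit, and the additional bmm summit has 50 bases on each side. spidey spans chrX:7908605-7908904, bmm chr3L:14781376-14781675, bgm chr2L:14011655-14011954 and the additional bmm summit chr3L:14781678-14781778. Capitals mark matches, on either strand, to 16 listed motifs and, in the bmm and bgm windows, to the repeated 6-mers TACATA and AAAGCT.
spidey: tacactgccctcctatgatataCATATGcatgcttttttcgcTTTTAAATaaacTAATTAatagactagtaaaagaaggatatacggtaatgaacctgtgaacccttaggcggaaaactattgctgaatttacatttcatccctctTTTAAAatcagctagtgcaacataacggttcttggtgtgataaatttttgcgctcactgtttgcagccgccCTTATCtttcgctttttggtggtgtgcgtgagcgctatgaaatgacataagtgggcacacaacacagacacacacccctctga
bmm: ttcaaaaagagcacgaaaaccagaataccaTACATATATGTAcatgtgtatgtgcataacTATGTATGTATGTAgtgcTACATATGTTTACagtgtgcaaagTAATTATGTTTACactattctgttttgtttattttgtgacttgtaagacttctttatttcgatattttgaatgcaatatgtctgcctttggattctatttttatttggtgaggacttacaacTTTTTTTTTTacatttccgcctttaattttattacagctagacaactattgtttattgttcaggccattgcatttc
bmm, additional summit: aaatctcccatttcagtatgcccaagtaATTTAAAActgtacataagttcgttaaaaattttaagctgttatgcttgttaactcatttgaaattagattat
bgm: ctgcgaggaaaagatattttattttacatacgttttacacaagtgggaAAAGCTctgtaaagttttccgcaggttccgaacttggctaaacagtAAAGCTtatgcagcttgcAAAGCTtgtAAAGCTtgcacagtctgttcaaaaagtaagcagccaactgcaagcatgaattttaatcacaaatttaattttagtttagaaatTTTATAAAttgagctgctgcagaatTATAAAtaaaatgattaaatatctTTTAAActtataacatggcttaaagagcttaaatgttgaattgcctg

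The spidey peak was the strongest of the 3 and lay in the promoter. It spanned X from 7908296 to 7909264, a width of 969 bp, with its summit at 7908755. The summit stood 176 bp upstream of the only annotated TSS of spidey (FBgn0029975, X from 7908931 to 7911885, forward strand), and 334 bases of the peak ran past that start into the gene. The same summit was 469 bp upstream of a TSS of dpr14 (FBgn0029974), a member of a family of immunoglobulin-domain cell-surface proteins that is read from the other strand. The starts of spidey and dpr14 are 645 bp apart and form a divergent pair. The peak covered nearly all of the space between them, beginning just short of the dpr14 start at 7908286. Its summit lay within 500 bp of both starts.

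The bmm peak lay inside the gene. It spanned 3L from 14781019 to 14782201, a width of 1183 bp, and held 2 listed summits, at 14781526 and at 14781728. The higher of them was 4886 bp downstream of the TSS of bmm (FBgn0036449, 3L from 14776496 to 14786412, reverse strand). Both summits were in the 6896-bp intron that follows the first exon, with the higher one 4393 bp from the first exon and 2504 bp from the next. Both annotated bmm transcripts start at the same position and contain this intron.

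The bgm peak lay between genes. It spanned 2L from 14011440 to 14012120, a width of 681 bp, with its summit at 14011805. That summit was 1199 bp upstream of the nearer of the 2 annotated starts of bgm (FBgn0027348, 2L from 14013004 to 14019328, forward strand) and lay at -1941 bp from the other (negative offsets are upstream). On the opposite side, the glutamine tRNA gene tRNA:Gln-CTG-4-1 (FBgn0028909) starts 1169 bp away and is read away from the peak. The summit thus stood close to the middle of a 2367-bp stretch without exons, and the tRNA gene was slightly nearer to it than bgm was. The nearest protein-coding genes are CG42692 to the left and, beyond bgm, NimC3.

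**Figure D1:**
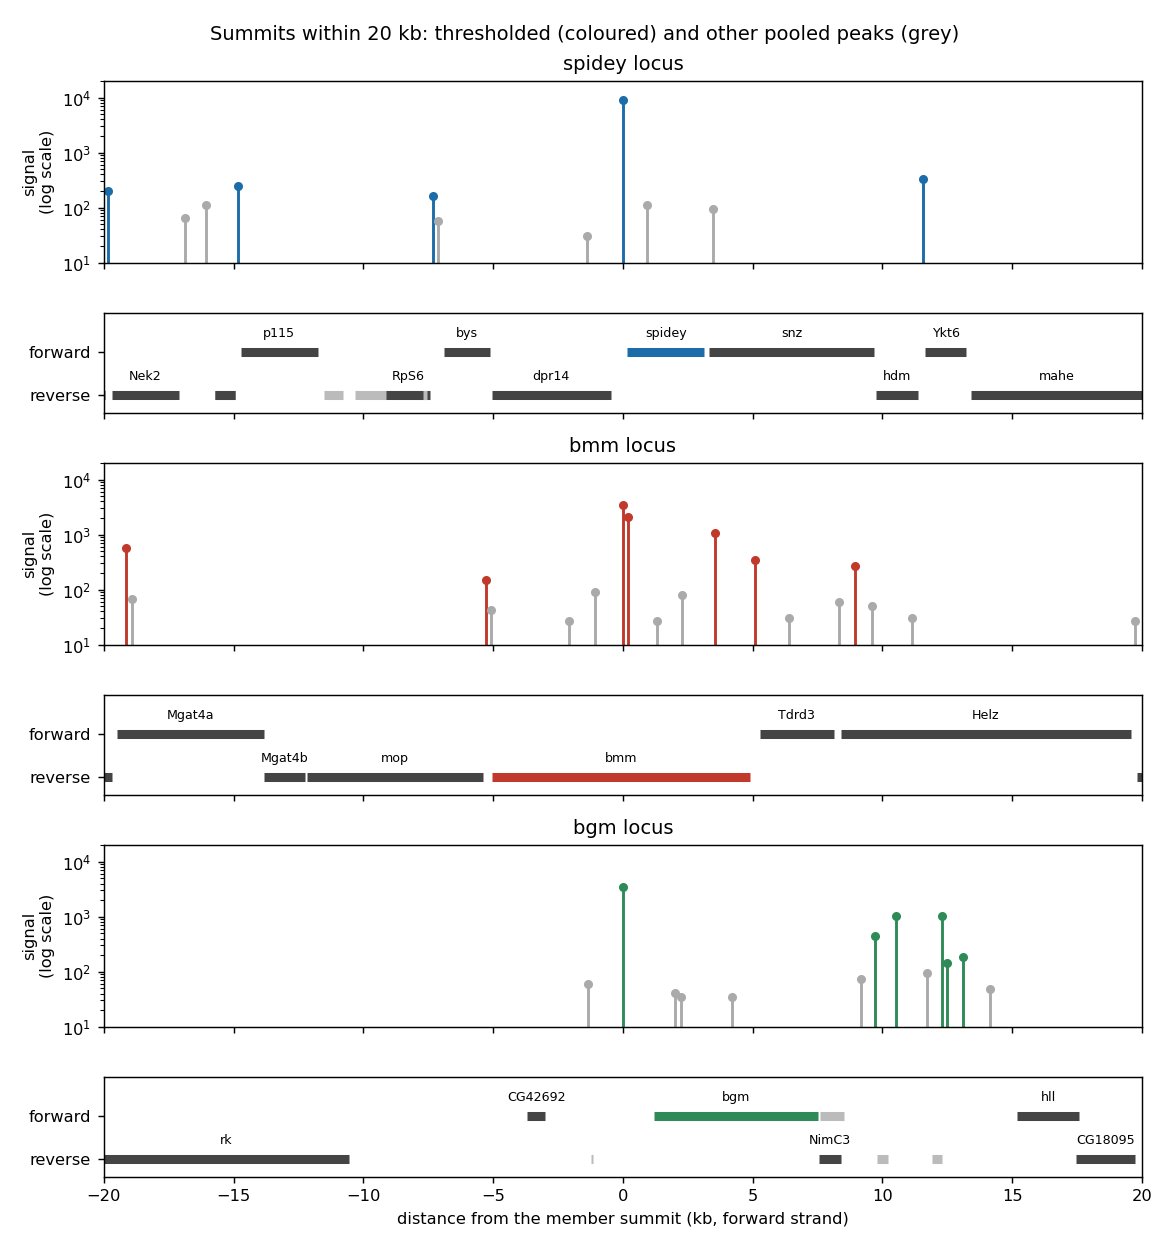
Deposited signal of pooled summits within 20 kb of each member summit, on a log scale, above gene bodies by strand (member genes coloured, other protein-coding genes dark, other genes light grey). Coloured stems are thresholded peaks and grey stems are other pooled peaks. The spidey peak stands alone at 8864 with no other summit above 335, whereas bmm and bgm have further summits above 1000.

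The replicates placed 2 of the 3 peaks within 12 bp of each other. The spidey summit was at 7908755 in replicate 2 and at 7908743 in replicate 3, a gap of 12 bp. For bgm the positions were 14011803 and 14011806, a gap of 3 bp. For the higher bmm summit they were 14781574 and 14781491, a gap of 83 bp. Across the 5927 thresholded peaks that overlapped a peak in both replicates by at least 1 bp, the median gap was 25 bp, with an interquartile range of 10 to 48 bp. The spidey and bgm gaps were under that median, and the bmm gap was above that range. Among the 20 leading peaks, gaps ran from 0 bp at CG18549 to 83 bp at bmm. Gaps as small as those of spidey and bgm also occurred at others, for example 12 bp at CG15771 and 1 bp at Top1.

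Ranks within each list followed the same division. The spidey peak had rank 3 in the thresholded and pooled lists and rank 4 in both replicates. The bgm peak had rank 13 in the thresholded and pooled lists, rank 14 in replicate 2 and rank 12 in replicate 3. The bmm peak had rank 14 in the thresholded and pooled lists, rank 10 in replicate 2 and rank 26 in replicate 3. The libraries thus differed more over it than over spidey and bgm. This was not particular to bmm among the leading peaks. Ranks in replicates 2 and 3 were 12 and 25 at blo and 49 and 11 at CG18549, whereas they were 6 and 5 at POSH. The next peaks above and below in the thresholded list were those of CG13919 and Top1 for spidey, px for bgm, and CG11050 for bmm, with bgm and bmm themselves neighbours. All 6075 thresholded peaks occur unchanged as the highest of the pooled list, and the equal ranks in those lists are 1 measurement. The deposited signal of the spidey peak was 8864 in the thresholded list, 5196 in replicate 2 and 3663 in replicate 3. It was 3451, 1742 and 1716 for bgm and 3391, 2389 and 1383 for bmm in the same lists. The scale of these values is not stated and need not be equal across lists. The authors' −log10 q-values do not separate the members, since 4269 thresholded peaks, these 3 included, share the highest value.

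The additional bmm summit differed most between the libraries. It had rank 61 in the thresholded list with a signal of 2074, rank 23 in replicate 2 and rank 529 in replicate 3. It stood 202 bp from the higher summit in the thresholded list. In replicate 2 the 2 summits were at 48 and 268 bp from the thresholded position of the higher one, and in replicate 3 at -35 and 164 bp. The distance between the pair was thus similar in both libraries while the whole pair was shifted. Intervals with several summits were rare, with 47 of 6027 in the thresholded list (0.780%).

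**Figure D2:**
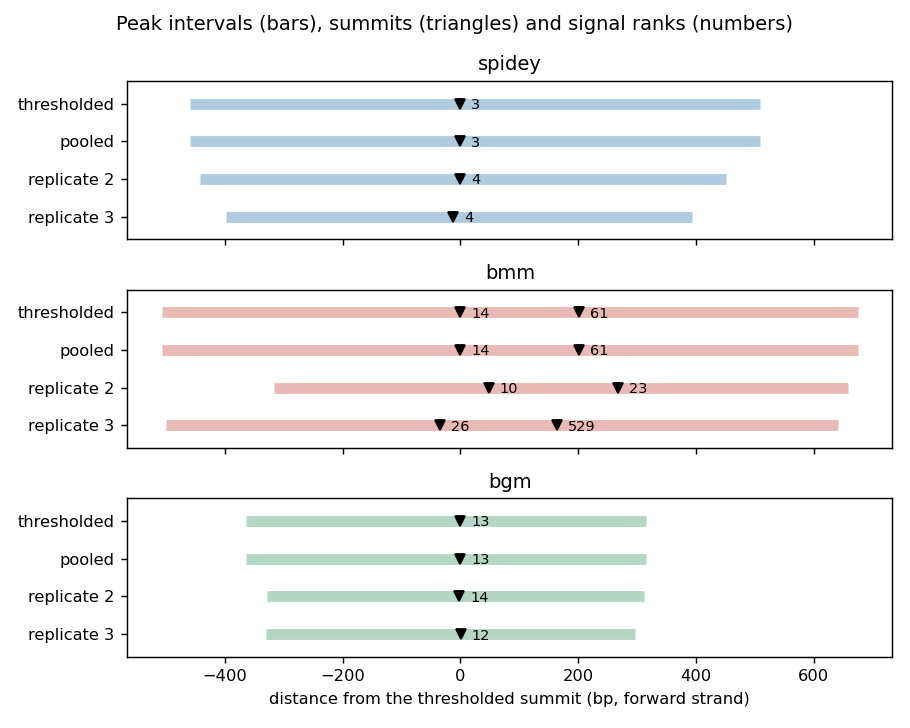
Extent of each member peak (bars), summits (triangles) and signal ranks (numbers) in the 4 lists, by distance from the thresholded summit in bp. The bgm bars and summits nearly coincide in all lists, whereas the bmm summits are displaced between replicates and the additional one has rank 23 in replicate 2 and 529 in replicate 3.

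All 3 peaks were broad for these lists. Among 6027 distinct thresholded intervals, the bmm interval was the 5th widest, that of spidey the 11th and that of bgm the 39th. Among the 20 leading peaks they were the 4th, the 6th and the 13th widest. The thresholded median was 316 bp, and the most frequent width, 400 bp, was held by 34.2% of thresholded and 85.9% of pooled peaks. By the sum of differences in log10 rank over the 4 lists, the other leading peak most like spidey was that of Top1 (rank 4, summed difference 0.472), the most like bmm was that of blo (rank 16, 0.212) and the most like bgm was that of CG11791 (rank 11, 0.212). Each was taken from 17 other peaks.

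**Figure D3:**
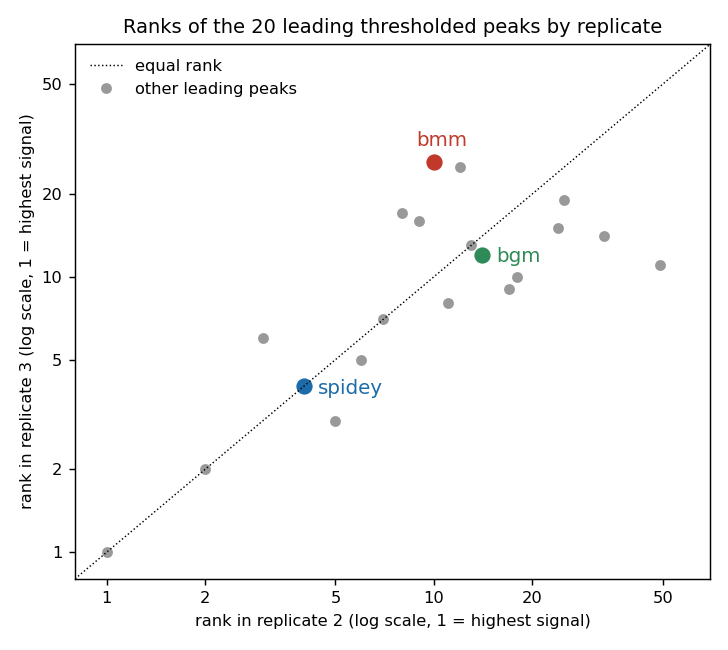
Ranks of the 20 leading thresholded peaks in replicate 2 (x axis) and replicate 3 (y axis), both on log scales, with the dotted line at equal rank. spidey lies on the line at rank 4, bgm close to it at 14 and 12, and bmm above it at 10 and 26.

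In the thresholded list, bmm had the most further summits of the 3 genes when the additional summit of its own interval is counted. Within 20 kb of the higher bmm summit there were 6 other thresholded summits, 1 of them the additional summit in the same interval. There were 5 around bgm and 4 around spidey. This order held in the full list of neither replicate. Replicate 2 had 16 further summits around bgm, 12 around bmm and 10 around spidey, and replicate 3 had 11, 23 and 15. Of these 2 full lists, bmm had the most only in that of replicate 3. Among as many of the highest peaks as the thresholded list holds, replicate 2 had 6 around bgm, 6 around bmm and 5 around spidey, and replicate 3 had 4, 7 and 4. Over all thresholded summits the median count was 3, with an interquartile range of 2 to 5, and as many or more were found around 19.3% of them for the bmm count, 29.7% for the bgm count and 43.1% for the spidey count. The spidey and bgm counts thus lay within the interquartile range and the bmm count above it. Without the additional summit of its own interval, bmm had 5, as many as bgm and within that range. The bgm count still held the summits at 14024091 and 14024293 separately, although their intervals overlap and share a start.

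At bmm, the intron carried 2 of these 6 further thresholded summits, beside the leading one. The strongest outside the leading interval was at 14785056, 1356 bp downstream of the TSS, with rank 241 in the thresholded list, 151 in replicate 2 and 442 in replicate 3. In the pooled list, the intron held 7 summits, which were all of the summits in the gene body. The promoter itself also carried a thresholded summit, at an offset of -204 bp from bmm, of rank 1793 with a signal of 353. It was nearer to Tdrd3 (FBgn0036450), the gene of a tudor-domain protein, read from the other strand (offset -175 bp), whose TSS is 379 bp from that of bmm. In the replicates, this promoter peak had rank 1594 and 2857. The remaining thresholded summits were at the promoters of Mgat4a (rank 816), a glycosyltransferase gene, Helz (rank 2665), a helicase gene, and mop (rank 5483), which encodes a phosphatase-like protein of endosomal sorting.

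At bgm, the further peaks were not in the gene. Neither annotated start had a thresholded summit within 500 bp, and the highest pooled summit there, at 57 bp downstream of the second start, had rank 20173 with a signal of 40.2. In replicate 2, a summit of rank 25127 lay at -215 bp from the first start and one of rank 18323 at 291 bp from the second, and in replicate 3 one of rank 14509 lay at -106 bp from the second. All 5 further thresholded summits stood together in the 6792-bp stretch between NimC3, the gene of a phagocytic receptor, and hll (heimdall, FBgn0286723), which begins 7673 bp beyond the end of bgm and encodes another acyl-CoA synthetase. The 2 strongest were at 14024091 (rank 249, signal 1047) and 14022328 (rank 258, signal 1033). The peak at 14024091 had rank 324 in replicate 2 and 221 in replicate 3, and that at 14022328 had 255 and 290, so both were strong in each library. The summit at 14024091 was 8 bp from the start of the long noncoding RNA gene lncRNA:CR31840, and at -2910 bp from hll. The hll promoter had no thresholded summit within 500 bp.

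At spidey, every further thresholded summit was at the promoter of another gene. These were Ykt6 (rank 1949, signal 335), which encodes a membrane fusion protein, p115 (rank 2903), a Golgi tether (in the replicates this peak was nearer to CG45089), Acat1 (rank 3901), an acetyl-CoA acetyltransferase, and RpS6 (rank 4887), a ribosomal protein. The spidey gene body held a pooled summit in an intron, 752 bp downstream of the TSS, of rank 7566. The next gene downstream, snz, encodes a sorting nexin that acts at lipid droplets, and its promoter had a pooled summit of rank 9000, below the threshold. Both appeared in each replicate. The intron summit had rank 8904 in replicate 2 and 7530 in replicate 3, and the snz summit had 8033 and 9848.

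The base composition of the 3 summits was not alike. Within 50 bp of the summit, GC content was 37.6% at spidey, 26.7% at the higher bmm summit, 26.7% at the additional one and 33.7% at bgm, compared with a median of 29.7% over all thresholded summits. Of these, 78.0% had a GC content as low as or lower than that of spidey, 67.0% as low as bgm and 35.8% as low as bmm. In windows centred 400 bp to either side, GC content was 43.8% at spidey, 39.8% at bmm and 37.3% at bgm. It was thus lower within 50 bp of the summit than in those windows in each gene. For bgm this depended on the window, since GC content within 25 bp of its summit was 39.2%, above its flanks. Nor was the summit the lowest point of any of the 3 profiles. In 50-bp windows, spidey had 34% GC at the summit and 24% at 100 bp to its left. The higher bmm summit had 24%, against 10% at 340 bp to its right. The bgm window was uneven: 50-bp windows had 40% GC at the summit and 14% at 40 bp to its right. The longest run of A and T within 50 bp was 10 bases at spidey, 8 at the higher bmm summit, 13 at bgm and 13 at the additional bmm summit, against a median of 10.

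**Figure D4:**
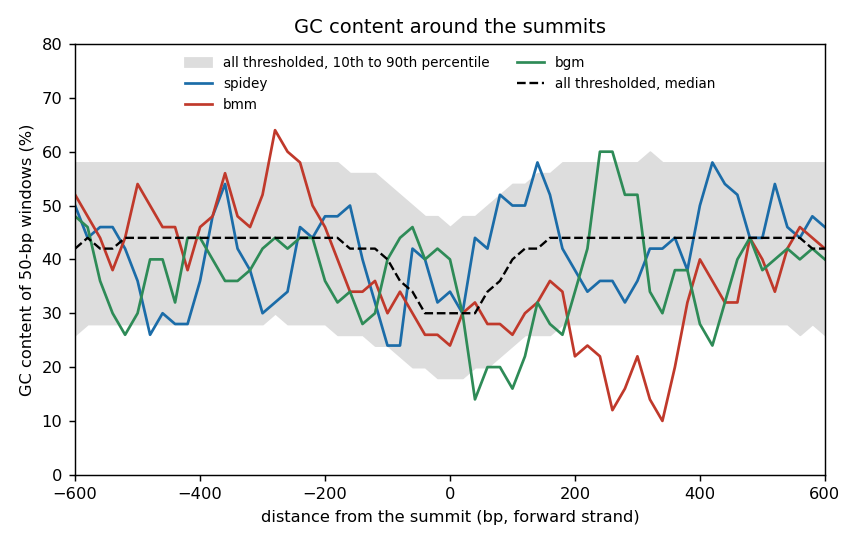
GC content of 50-bp windows (y axis, %) by distance from the summit (x axis, bp, forward strand) for spidey, bmm and bgm, with the median of all thresholded peaks (dashed) and the range from their 10th to their 90th percentile (grey). At the summit, bmm has 24%, spidey 34% and bgm 40%, where the median of all is 30%.

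Of the 16 motifs searched in the printed 300-base windows, 8 matched at least 1 of the 3. The spidey window held TTTAAA 2 times, 1 of them across the summit from -4 to 1, and the 8-mer ATTTAAAA, which contains the other, at -108. It also held 1 match each to the E-box CATATG, to the GATA-factor motif GATAAG and to the homeodomain motif TAATTA. The DRE (TATCGATA), a promoter element, was absent from it but occurred within the peak, at -398 from the summit. Stretches of the same extent held a DRE at 6.40% of thresholded summits. In windows of 300 bases, TTTAAA was found at 43.3% of thresholded summits and ATTTAAAA at 14.8%. The homeodomain motif was found at 25.3%, the GATA-factor motif at 14.6% and the E-box at 10.6%.

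The bmm window held the forkhead motif GTAAACA, which is bound by FoxO proteins among others, 2 times, with matches starting at -66 and -42, 24 bp apart. The motif occurred at least 1 time in 9.07% of thresholded windows and 2 or more times in 33 of 6075 (0.543%). The match at -66 overlaps a CATATG, and the other directly follows a TAATTA. It was absent from the spidey and bgm windows, and the additional bmm summit had ATTTAAAA at -22. The bgm window held TATAAA 3 times, between 54 and 84 bp to the right of the summit, and TTTAAA 1 time. Of the 3 TATAAA matches, 2 overlap on opposite strands, at 54 to 59 and 56 to 61. At least 1 TATAAA was found in 47.8% of thresholded windows. None of the windows matched the sterol response element (TCACNCCAC), which is known for lipid gene control in mammals and was present in 0.642% of all, or the nuclear receptor half-site AGGTCA (6.04%). The motifs GAGAG of the GAGA factor (32.7%), CAGGTAG of Zelda (1.38%) and the E-box CACGTG (3.03%) also had no match in the 3 windows, nor had the CCAAT box (43.2%) or the core of the DRE, ATCGAT (11.8%). A tract of 7 A, AAAAAAA, matched 4 overlapping times in the bmm window, where 34.4% of windows held at least 1. No match says only that these letters are not in these windows. Outside the window but within the peak, bmm held GAGAG 7 times, starting from -381 to -218, CACGTG 1 time at -170 and AGGTCA 1 time at 451. Stretches of that extent held GAGAG at 79.9% of thresholded summits, CACGTG at 14.8% and AGGTCA at 23.4%. The spidey peak likewise held GAGAG at -164, CCAAT at -170 and the ATCGAT core within its DRE, and the bgm peak held none of these.

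The bmm and bgm windows each had a short repeat on the left of the summit, found after the sequences were seen. TACATA matched 6 times in the bmm window, from -120 to -72 and partly overlapping. As many or more matches occurred in 0.428% of thresholded windows. AAAGCT matched 4 times in the bgm window, from -102 to -29, and as many or more occurred in 0.230%. TGTAAA was also found 4 times in the bgm window. In the spidey window, the most frequent 6-mer other than those of A and T alone was AAAAGC, with 3 matches, as many as 2 others. As many or more AAAAGC matches occurred in 0.724% of thresholded windows. Each of these 6-mers was picked for being among the most repeated in its own window. The shares are therefore low by choice, and nothing was tested.

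Other genes of lipid metabolism were examined for a thresholded summit within 500 bp of any TSS. spidey and bmm had one and bgm did not, beside 20.4% of all protein-coding genes. In the pooled list, 47% of all protein-coding genes had one. The choice of spidey, bmm and bgm used the thresholded list, so nothing is read from their own promoter summits. Of 166 other genes in 10 lists, 57 had a thresholded promoter summit (34.3%, Wilson 95% interval 27.5 to 41.8, for counting error only and taking genes as independent), and 112 had one in the pooled list (67.5%). The median rank of their highest promoter summit was 2484, and over all genes with one it was 2519. No test of the lists was made.

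The lists that hold the 3 genes had shares of 14.3% to 40.0%, with intervals that overlap. Of 21 other genes of fatty acid synthesis and elongation, the pathway of spidey, 3 had a thresholded promoter summit (14.3%). They were Baldspot, an elongase (rank 1362, offset -265 bp), AcCoAS, an acetyl-CoA synthetase (rank 2300), and ACC, acetyl-CoA carboxylase (rank 5317). ATPCL, which makes cytosolic acetyl-CoA, had a pooled summit of rank 6481, below the threshold. Of 15 other lipases and lipid droplet proteins, the class of bmm, 6 had one (40.0%). PAPLA1, a phospholipase, led with rank 603, and Hsl, the hormone-sensitive lipase, had rank 3295 at a peak whose nearest TSS is that of Ate1. Of 19 other genes for acyl-CoA synthetases and fatty acid transport, the class of bgm, 4 had one (21.1%). They included strong peaks at CG3961 (rank 134, signal 1458), Acbp1, an acyl-CoA binding protein (rank 166, at a peak nearer to Piezo), and pdgy, an acyl-CoA synthetase (rank 300). Acsf2, also of this class, had rank 2156. Acbp2 and Acsl, which activate or carry fatty acids, had pooled summits below the threshold, of rank 6342 and 7798. Of the lipid droplet proteins, Jabba, a droplet surface protein, had a pooled summit of rank 26379.

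Shares in the other lists ran from 7.69% to 66.7%. Of 18 genes of glycerolipid and phospholipid synthesis, 12 had a thresholded promoter summit (66.7%, 43.7 to 83.7), among them Pss, which makes phosphatidylserine (rank 440, at a peak whose nearest TSS is that of Nubp2), Lpin, the phosphatidate phosphatase lipin (rank 470), Cds (rank 610) and eas, an ethanolamine kinase (rank 756). Of 17 regulators of lipid storage, 10 had one (58.8%, 36.0 to 78.4), among them the transcription factors cbt (rank 304), Hnf4 (rank 680), Hr96 (rank 801) and bigmax (rank 1541). Of 10 desaturases and their electron donors, 5 had one, with CG9743 (rank 739) and Cyt-b5 (rank 907) the strongest. Of 30 genes of beta-oxidation, 10 had one (33.3%), among them Pex6, a peroxisome assembly factor (rank 379), and Mcad, a medium-chain acyl-CoA dehydrogenase (rank 2065). Of 13 genes of sphingolipid metabolism, 4 had one, led by lace, a serine palmitoyltransferase subunit (rank 1313). Of 10 lipoprotein and receptor genes, 2 had one, Mtp (rank 1379) and Apoltp (rank 5538). Of 13 genes of ecdysteroid synthesis and sterol handling, only Npc2b had one (rank 3652). Genes with no promoter summit even in the pooled list included Akh and AkhR, the adipokinetic hormone that mobilizes stored fat and its receptor, Dgat2, a triglyceride-forming acyltransferase, Npc1a and LpR1.

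**Figure D5:**
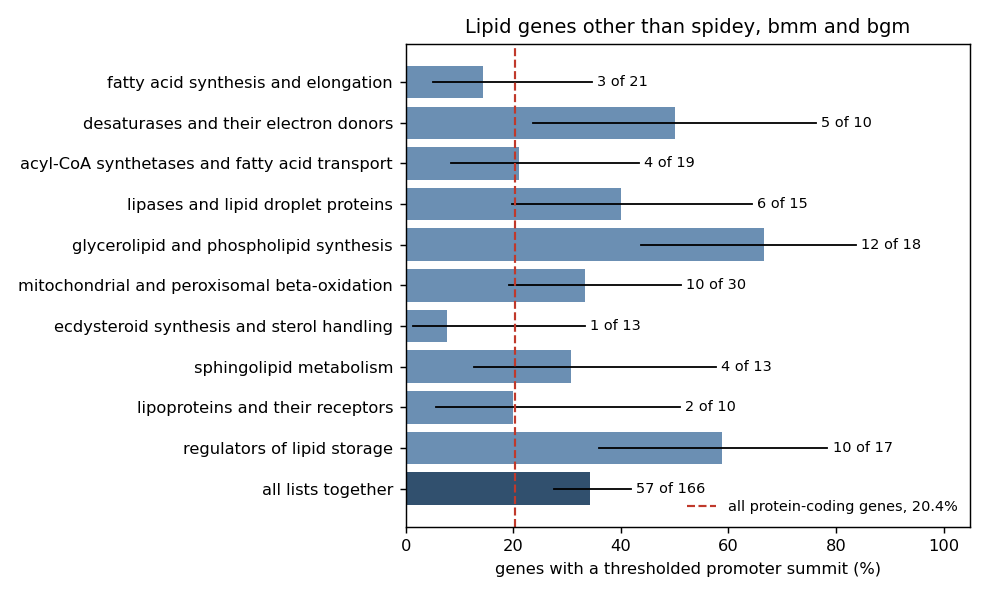
Share of genes with a thresholded promoter summit (bars, %) in 10 lists of lipid genes and in all of them together, without spidey, bmm and bgm, with Wilson 95% intervals (lines) and counts. The dashed line is the share of all protein-coding genes, 20.4%. Intervals were 43.7 to 83.7 for glycerolipid and phospholipid synthesis, 36.0 to 78.4 for regulators and 23.7 to 76.3 for desaturases. They were 4.98 to 34.6 for fatty acid synthesis and elongation, 1.37 to 33.3 for ecdysteroid synthesis and 27.5 to 41.8 for all lists together. The intervals cover counting error only, take genes as independent and make no allowance for the number of lists. Their position against the line is therefore not a test. The lists were chosen with earlier results of these data known, and no test of them was made.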

How the data were processed

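ChIP-seq peak lists of 2 libraries from 1 group were analysed. Per the labels, chromatin was sonicated to 200 to 800 bp. Per the notes that accompany the deposited files, peaks were called on dm6 with a control alignment, per replicate and on both replicates together, and the thresholded list comes from all 3. Aligner, peak caller and threshold: not given in the sources used here. Each peak carries the authors' deposited signal, which has no stated scale and ordered peaks inside each list. The authors' −log10 q-value gave an alternative order. Summits were taken from the deposited offset column.

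Gene models came from Ensembl release 115 without transposable elements, and sequence from the RefSeq copy of the same assembly. Of 17835 genes matched by symbol between the Ensembl and RefSeq tables, 99.76% had the same chromosome, start and end, and every peak lay inside its chromosome arm. Positions are 1-based. Offsets are to the nearest protein-coding TSS, and a promoter is within 500 bp of one. A replicate peak was matched by an overlap of at least 1 bp and the nearest summit. Of 177 listed lipid gene symbols, 160 matched the annotation as written and 10 through a synonym, and 7 are not reported here. Motifs were matched exactly on both strands.

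The genes named are the 3 members, their neighbours, genes at further thresholded peaks within 20 kb, leading peaks most like them, the 20th and 21st peaks, and up to 4 genes per list with a thresholded promoter summit, by signal, and up to 4 without. The tRNA gene and the noncoding RNA genes were named after their values were seen. Most-alike peaks have the smallest summed difference in log10 rank. The members and lists were chosen with earlier results of these data known. Functions were tested on simulated data, and Python 3.11.15 with numpy 2.4.6 and scipy 1.17.1 was used. Figures were drawn with matplotlib 3.10.9. Alternatives varied the list, replicate, window, annotation and threshold. With 1 group and members chosen by signal, no p-value was computed.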

Additional observations from a re-analysis of the deposited data

How the results depend on the processing

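No paired analysis was possible because the study has 1 group and no result comes from a test. Depth is unknown, and the lists of 30000 peaks are of equal length, so a missing weak peak does not show that binding is absent. Across single-replicate lists, ranks were 4 to 4 for spidey, 10 to 26 for bmm and 12 to 14 for bgm, and the offset of the spidey summit was -188 to -176 bp. Ranking by −log10 q-value gave rank 1 to all 3, since the highest value is shared. The midpoint of the interval in place of the summit gave offsets of -151 bp for spidey, 4802 bp for bmm and -1224 bp for bgm, and the nearest TSS of any gene type moved bgm to -1169 bp, at the tRNA gene. Further thresholded summits within 10 kb numbered 1 at spidey and 1 at bgm, and within 50 kb 12 at bmm. The pooled list gave 10, 17 and 12 within 20 kb for spidey, bmm and bgm, and the highest 50% of thresholded peaks gave 2 for spidey and 3 for bgm. GC content was 33.3% within 25 bp and 39.8% within 100 bp for spidey, 39.2% and 32.3% for bgm, and 28.9% within 100 bp for bmm. With the highest 50% of peaks, 36 of 166 lipid genes (21.7%) had a promoter summit, compared with 12.0% of all genes. The share of lipid genes was above that of all genes in every one of the 7 settings. These settings reuse the same gene lists and the same 2 libraries, so they are not independent, and the difference was not tested. Of the 3 leading summits, 1 lay in a promoter with windows of 250, 500 and 1000 bp alike.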

Other observations

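The peaks of bmm and bgm stood less far above their surroundings than the other leading peaks did. The signal of the leading peak divided by that of the highest further thresholded summit within 20 kb was 1.64 for bmm and 3.30 for bgm, whereas spidey had 26.5. Of the 17 other leading peaks, 14 had a further summit, and their ratios ran from 5.46 to 55.6 with a median of 18.6. For bmm, the further summit is the additional one of the same interval, and without it the ratio was 3.18. This was seen in the data and was not tested.

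No 8-mer occurred in all 3 windows, and pairs of windows shared 9 (spidey and bmm), 7 (spidey and bgm) and 11 (bmm and bgm) 8-mers, counting both strands. Over the 190 pairs of windows of the 20 leading peaks, the median was 6 and the range 0 to 22.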
